A study of Homo sapiens with 3 samples.

Results

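Melanocyte-like cells of 2 libraries, taken on day 32 (D32) and day 44 (D44) of melanocyte induction, were compared across all genes. A cell was counted as melanocyte-like when the melanosome genes PMEL, MLANA, DCT and TYRP1 together made up at least 10 of every 10000 of its unique molecular identifiers (UMIs, the tags that mark single captured RNA molecules). This rule picked 5618 of 6023 kept cells of D32 and 5736 of 5811 of D44, together 11354 of 11834, and the whole series held 15629 kept cells with its other library, D23. The cells were thus selected on the measured levels of these 4 genes, whose values are given as a description.

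The starting cells are induced pluripotent stem cells by the sample titles but H9, an established embryonic line, by the other fields, and the day was the label used. Both libraries came, according to the study's methods, from a single induction and a single sequencing batch. Embryoid bodies had been grown in medium conditioned by Wnt3a-producing cells, with SCF, endothelin-3, bFGF, cholera toxin, dexamethasone, ascorbic acid, linoleic acid-albumin, insulin-transferrin-selenium and the phorbol ester TPA, and from the first passage onwards the cells received serum in place of TPA. The cultures were passaged every few days and frozen as single cells before sequencing, so that D44 cells had also been through more passages. There was 1 library per day, so no test between days was possible, and a difference between them cannot be told apart from a difference between these cultures or libraries.

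Melanocytes arise from the neural crest and make melanin in melanosomes, organelles related to lysosomes. PMEL forms the fibrils on which pigment is laid down, TYR catalyses the rate-limiting step, and DCT and TYRP1 act further along the eumelanin branch. Melanosomal transporters such as OCA2 set the pH at which TYR works, and the transcription factors MITF, SOX10 and PAX3 drive the programme under signals from receptors such as KIT, EDNRB and MC1R.

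D32 held 8927 barcodes with 268339312 UMIs and D44 held 8010 with 280879346. Melanocyte-like cells had medians of 36810 UMIs in D32 and 42966 in D44, with 6133 and 6456 genes and 5.03% and 4.80% mitochondrial UMIs. Each cell was therefore thinned at random to 10000 UMIs, which left out 7 cells of D32 and 4 of D44 and kept 5611 and 5732. At this depth the median was 3221 genes per cell in D32 and 3171 in D44. Called doublets, whose number was preset from the barcode count of each library, made up 10.8% of the melanocyte-like cells of D32 and 8.51% of those of D44 and were kept. The libraries shared 28 cell barcodes, carried by 15 melanocyte-like cells of D32 and 20 of D44.

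Melanocyte-like cells made up 93.3% of kept cells in D32 (exact 95% binomial interval 92.6 to 93.9%) and 98.7% in D44 (98.4 to 99.0%). Their median level of the 4 genes was 87.3 UMIs per 10000 in D32 and 107 in D44, against medians of 0.834 and 4.16 in the other kept cells. Few cells lay close to the limit. Between 9 and 10 UMIs per 10000 there were 9 cells of D32 and 8 of D44, and between 10 and 11 there were 9 and 6. The lower and upper quartiles of the melanocyte-like cells were 62.0 and 118 in D32 and 72.6 and 145 in D44, so the distributions overlapped widely. The other cells lay closer to the limit in D44, where 34 of 75 were between 5 and 10 UMIs per 10000, than in D32, where 21 of 405 were. These are levels of the selecting genes, and whether the other cells differed in kind was not tested.

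**Figure D1:**
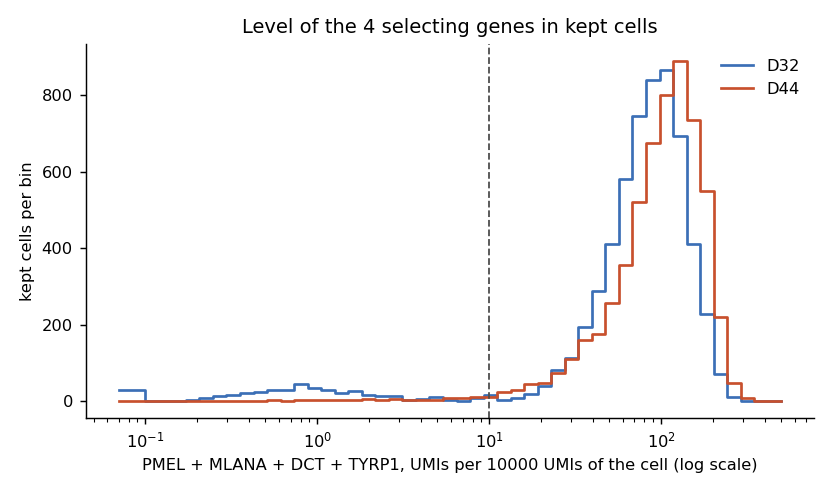
Number of kept cells per bin (vertical axis) against the summed UMIs of PMEL, MLANA, DCT and TYRP1 per 10000 UMIs of the cell (horizontal axis, log scale, with cells at 0 in the leftmost bin) for D32 and D44 (lines). The dashed line is the limit of 10, and both libraries peak well to its right, D44 further than D32 (medians 107 and 87.3).

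Levels are given in CPM, the UMIs of a gene per 1000000 UMIs summed over the thinned melanocyte-like cells of a library, D32 first. Intervals are exact 95% Poisson intervals and, like those of shares of cells, cover counting error only. A gene was called when it averaged at least 10 CPM over both libraries, differed at least 1.5-fold and had intervals that did not overlap. Of 8045 genes at that level, 152 were called higher at D44 (1.89%) and 171 lower (2.13%), together 323 or 4.01%. Counts of called genes in a list are to be read beside these shares. The higher calls were 47.1% of all calls, and 58.3% when the libraries were scaled with edgeR's TMM factors. The log2 differences of all genes had a median of -0.03 and quartiles of -0.17 and 0.13.

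**Figure D2:**
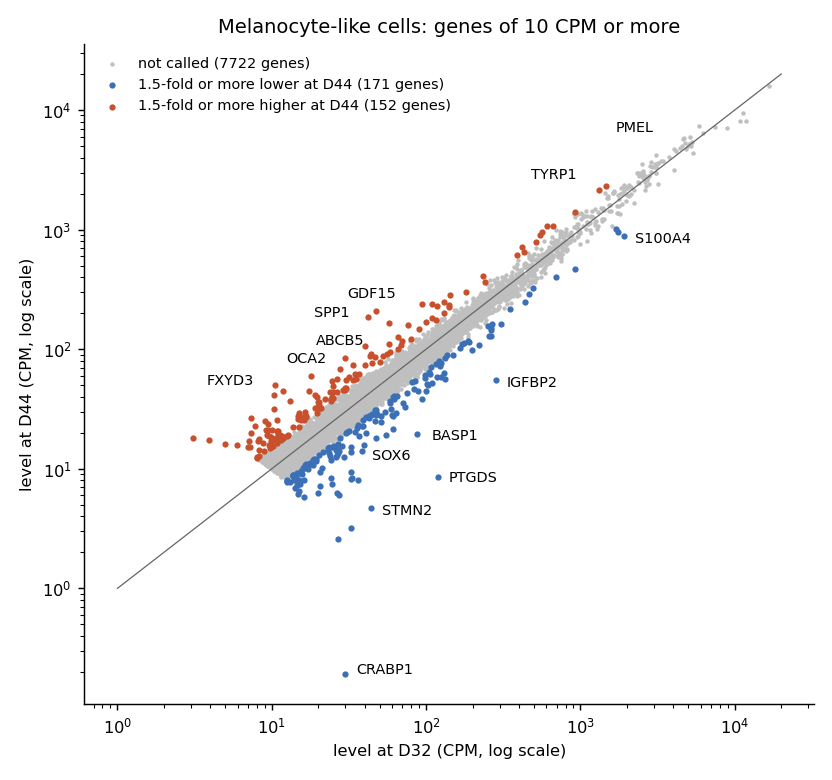
Level of each of 8045 genes at D32 (horizontal axis) and D44 (vertical axis) in melanocyte-like cells, in CPM on log scales, with the line of equal levels. The 152 genes called higher and 171 called lower are coloured, and CRABP1, at 29.8 CPM in D32 and 0.19 CPM in D44, lies farthest from the line.

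The list of melanin and fibril genes holds the 4 selecting genes, whose levels are given as a description. TYRP1 stood at 1328 CPM in D32 (1318 to 1337) and 2141 CPM in D44 (2129 to 2153), 1.61-fold higher and past the limit. DCT stood at 1434 and 2021 CPM and MLANA, a melanosomal protein, at 1501 and 1921 CPM, both under the 1.5-fold limit. PMEL was at 4993 CPM in D32 (4974 to 5011) and 4967 CPM in D44 (4949 to 4986), with overlapping intervals. The cells had been chosen by these 4 genes, so nothing is read from their levels.

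Of the genes that the rule did not use, TYR was at 249.7 CPM in D32 (245.5 to 253.8) and 349.5 CPM in D44 (344.7 to 354.4), a log2 difference of 0.49 that missed the limit. UMIs of TYR were found in 74.2% of melanocyte-like cells of D32 and 90.6% of those of D44, against 1.98% of the other kept cells of D32. The melanosomal glycoprotein gene GPNMB was at 804 and 756 CPM and the melanosomal receptor gene GPR143 at 613 and 621 CPM. The protease gene CAPN3 was at 442 and 519 CPM and the pteridine reductase gene QDPR at 215 and 264 CPM. Without the 4 selecting genes, 6 genes of the list remained, none called, with 5 above 0 and a median log2 difference of 0.21, beside -0.03 over all genes tested.

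Transport genes of the melanosome held the largest change in the pigment pathway. OCA2 (ENSG00000104044, chromosome 15, 27754875 to 28099315, minus strand) was at 18.0 CPM in D32 (16.9 to 19.1) and 59.8 CPM in D44 (57.8 to 61.8), 3.33-fold higher. At equal depth it was found in 13.0% and 37.5% of melanocyte-like cells, and in 0.495% of the other kept cells of D32. SLC24A4, a sodium-calcium exchanger of the same family as SLC24A5, went from 7.20 to 15.3 CPM, and SLC7A5, which carries large neutral amino acids such as tyrosine into cells, from 141 to 235 CPM. These 3 were the called genes among 14 transport genes, whose median log2 difference was 0.13. SLC45A2, a melanosomal transporter, stood at 19.9 CPM in D32 and 14.1 CPM in D44, a log2 difference of -0.50 that was not called. SLC24A5 stood at 180 and 187 CPM, the channel gene TRPM1 at 355 and 371 CPM and the cysteine importer gene MFSD12 at 1844 and 2243 CPM.

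**Figure D3:**
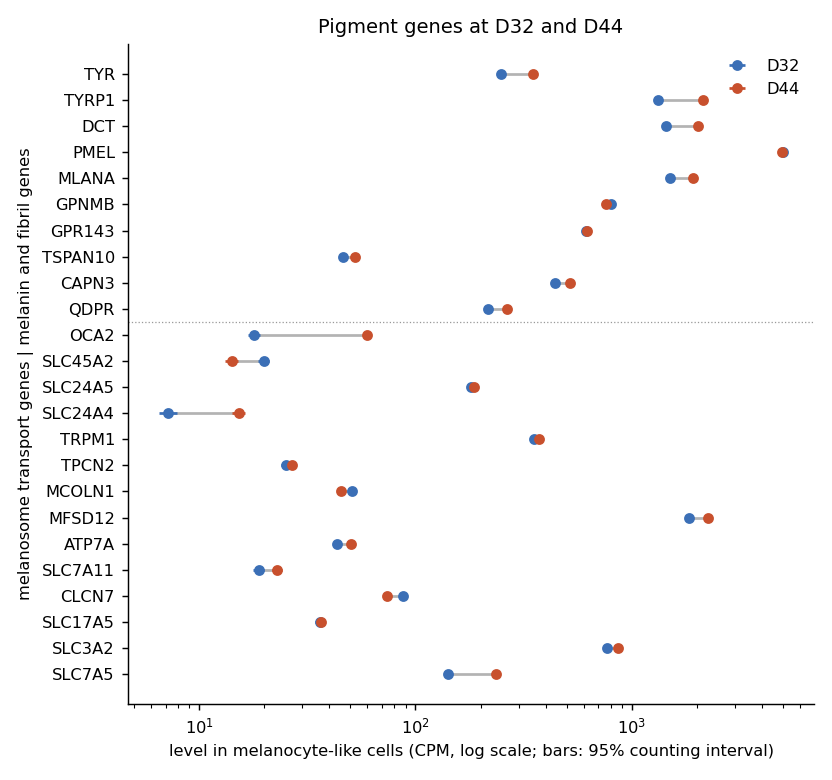
Levels in CPM (horizontal axis, log scale) of 10 melanin and fibril genes (above the dotted line) and 14 melanosome transport genes (below it) in melanocyte-like cells of D32 and D44 (points), with exact 95% Poisson intervals as bars. OCA2 shows the widest step, from 18.0 to 59.8 CPM, whereas PMEL and TRPM1 almost coincide.

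The promoter of OCA2, which had the largest difference among the pigment genes, is shown with that of the selecting gene TYRP1 for their E-box. The letters CATGTG, the core of the M-box that MITF is known to bind, were searched on both strands in RefSeq windows of 250 bases before to 50 after the start (GRCh38.p14), and matches are in capitals (CACATG is the same motif on the other strand). TYRP1 lies at chr9:12693135-12693434 on the plus strand, with matches beginning 144 and 11 bases before the start, and OCA2 at chr15:28099266-28099565 on the minus strand, with a match beginning 153 bases before it.
TYRP1: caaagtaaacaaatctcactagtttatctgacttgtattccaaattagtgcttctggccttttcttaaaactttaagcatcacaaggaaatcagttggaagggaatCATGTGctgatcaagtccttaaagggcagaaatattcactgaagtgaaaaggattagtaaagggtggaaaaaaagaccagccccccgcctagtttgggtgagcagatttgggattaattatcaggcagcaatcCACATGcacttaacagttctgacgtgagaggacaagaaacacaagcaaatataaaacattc
OCA2: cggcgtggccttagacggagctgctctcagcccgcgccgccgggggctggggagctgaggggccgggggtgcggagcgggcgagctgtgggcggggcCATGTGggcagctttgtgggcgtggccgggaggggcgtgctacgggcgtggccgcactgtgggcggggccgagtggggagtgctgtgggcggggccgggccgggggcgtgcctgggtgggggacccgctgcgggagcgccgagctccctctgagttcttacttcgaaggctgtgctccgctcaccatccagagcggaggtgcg
The motif was present in 11.1% of 34943 such windows. It was found in 5 of 9 melanin and fibril genes with a window and in 4 of 12 transport genes. TYR, which was not called, has it 104 and 12 bases before its start. GPNMB, SLC24A5 and TRPM1, which were not called either, hold it too. The windows of the called gene SLC24A4 and of the selecting genes DCT and MLANA do not hold these letters. Another E-box, CACGTG, was searched as well. It was in 7.23% of all windows, in 0 of the 9 melanin and fibril genes and in 4 of the 12 transport genes. A match is a description of these letters and not a shown binding site.

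Among the transcription factors of the lineage, the SoxD genes SOX5 and SOX6 were called. MITF (chromosome 3, 69739456 to 69968336) was at 342 CPM in both libraries (337.6 to 347.3 in D32 and 337.1 to 346.7 in D44). SOX10 was at 91.6 and 108 CPM, PAX3 at 60.3 and 42.8 CPM and TFAP2A at 227 and 179 CPM, none of them called. SOX6 (ENSG00000110693, chromosome 11, 15966449 to 16739591), a SoxD factor that with SOX5 modulates SOX10 activity in melanocytes, fell from 55.0 CPM (53.04 to 56.9) to 19.1 CPM (18.0 to 20.3), and its share of cells from 39.2% to 16.9%. SOX5 fell from 42.6 to 26.7 CPM. They were the called genes of 21 tested transcription factors, with a median log2 difference of -0.05.

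None of 13 tested receptors and ligands was called in either direction, beside 4.01% called over all genes, so nothing is read from this count. KIT, the SCF receptor, was at 43.6 CPM in D32 and 34.7 CPM in D44, EDNRB, the endothelin receptor, at 157 and 126 CPM, and ERBB3 at 71.3 and 71.5 CPM. MC1R, the melanocortin receptor, lay under the level limit at 4.81 and 7.59 CPM. Of 28 genes of melanosome transport and transfer, SYTL2, a RAB27 effector, was the one called, from 32.6 to 13.8 CPM. RAB27A (135 and 133 CPM), MLPH (77.0 and 79.6 CPM) and MYO5A (81.6 and 87.6 CPM), which tether melanosomes to actin, differed by less than 1.1-fold.

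Among the 15 largest rises were FXYD3, SPP1 and GDF15. FXYD3, a small modulator of the sodium pump, was at 10.6 CPM in D32 (9.73 to 11.5) and 50.4 CPM in D44 (48.6 to 52.3), 4.77-fold higher. SPP1, which encodes osteopontin, was at 42.0 CPM (40.3 to 43.7) and 185 CPM (181 to 188), and GDF15, a stress-induced cytokine, at 47.5 CPM (45.7 to 49.4) and 209 CPM (205 to 212). UMIs of SPP1 were found in 23.9% and 61.7% of melanocyte-like cells and those of GDF15 in 24.1% and 59.8%. In the other kept cells of D32 these shares were 13.4% and 16.1%, below those of the melanocyte-like cells of either library. FXYD3 was found in 0.248% of those cells.

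Further genes with large rises had diverse roles. CYP1B1, a cytochrome P450, went from 10.4 to 41.7 CPM, the adenylate cyclase gene ADCY1 from 7.34 to 26.6 CPM and AKAP12, a scaffold for protein kinase A, from 40.5 to 107 CPM. The monocarboxylate transporter family gene SLC16A6 went from 57.4 to 164 CPM and the pigment cell transporter gene ABCB5 from 29.8 to 85.2 CPM, the latter in 22.0% and 49.9% of cells. The immediate early genes FOSB and IER3 rose from 9.09 to 25.3 CPM and from 17.5 to 45.05 CPM. The remaining genes among the 15 largest rises were TAC1, CCDC171, VEPH1 and EFHD1, of which EFHD1, a mitochondrial calcium-binding protein gene, went from 13.0 to 36.8 CPM. TAC1, the precursor of substance P, was held by few cells: UMIs were in 3.35% of cells of D32 and 8.79% of those of D44, and the 5% of D44 cells with most of it held 90.8% of its UMIs.

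Among the 15 largest falls were PTGDS, IGFBP2 and STMN2. PTGDS, a prostaglandin D synthase, went from 120 CPM in D32 (117 to 122) to 8.57 CPM in D44 (7.83 to 9.36), 13.95-fold lower, and from 34.0% to 5.06% of cells. IGFBP2, which binds insulin-like growth factors, went from 282 CPM (278 to 287) to 55.5 CPM (53.6 to 57.4), and from 86.4% to 25.8% of cells. STMN2, a microtubule regulator of neurons, fell from 43.8 to 4.73 CPM, BASP1, a membrane protein of growth cones, from 87.1 to 19.4 CPM and the neural adhesion gene L1CAM from 32.6 to 9.46 CPM. PDLIM3, an actin-associated LIM protein gene, fell from 26.7 to 2.60 CPM and RGS16, a regulator of G protein signalling, from 32.4 to 3.23 CPM. BIK, which promotes cell death, fell from 33.1 to 8.44 CPM. FBXO2, CRIP1, LNP1, NANOS1 and INKA1 fell by log2 differences between -2.18 and -1.52.

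Other kept cells also carried some of these genes, and their share was larger in D32. IGFBP2 was at 1599.5 CPM, BASP1 at 635 CPM and STMN2 at 217 CPM in the other kept cells of D32. Free RNA was modelled on the summed kept cells of each library, of which melanocyte-like cells were 93.3% in D32 and 98.7% in D44. Taking it off can therefore move a ratio much only where other cells held far more of the gene. With 10% free RNA taken off, the log2 difference of IGFBP2 was -2.31 in place of -2.35, that of BASP1 -2.11 in place of -2.17 and that of STMN2 -3.20 in place of -3.21. CRABP1, a retinoic acid-binding protein gene of neural crest and neural cells, differed: its 29.8 CPM in D32 came from 3.62% of cells, while other kept cells held 2139 CPM. Called doublets carried 33.2% of its D32 UMIs, and without them the level was 22.3 CPM. Its log2 difference of -7.28 was -6.73 without called doublets and -6.66 with 10% free RNA taken off, where its mean level lay under 10 CPM and it was no longer called.

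COL1A1 was at 8.91 and 0.84 CPM and COL3A1 at 5.60 and 0.05 CPM, both collagen genes under the level limit, with 662 and 490 CPM in the other kept cells of D32, and called doublets held 50.6% and 48.4% of their D32 UMIs. COL1A2 was called lower, from 132 to 56.5 CPM, and its UMIs were in 56.6% and 32.4% of cells. Called doublets held 12.3% of its D32 UMIs, and its log2 difference of -1.22 was -1.20 without them and -1.18 with 10% free RNA taken off. Over the whole mesenchymal list the summed level was 813 CPM in D32 and 958 CPM in D44, and the fibronectin gene FN1 in it rose from 143 to 284 CPM. The neural list summed to 182 and 133 CPM and the epithelial list to 75.6 and 51.4 CPM, against 3038 and 3077 CPM in the other kept cells of D32. KRT8 and KRT18 were called lower, from 16.2 to 5.83 CPM and from 42.4 to 27.6 CPM, and neither was called once 10% free RNA was taken off. Schwann cell markers summed to 1355 and 1620 CPM, with MBP and S100B called higher and PMP22 lower. Pluripotent cell markers summed to 56.7 and 55.5 CPM, with none called. MEOX2, NEUROG1, NEUROG2, KRT5, KRT14 and TDGF1 had no UMI in melanocyte-like cells of either library. DCX, ZIC1, ZIC2, PAX6, POU5F1, NANOG and LIN28A had none in D44. Finding no UMI does not exclude a low level, and the floor of 3 UMIs set for ratios equals 0.0535 CPM in D32 and 0.0523 CPM in D44. The part of other cell types in these differences was not tested.

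**Figure D4:**
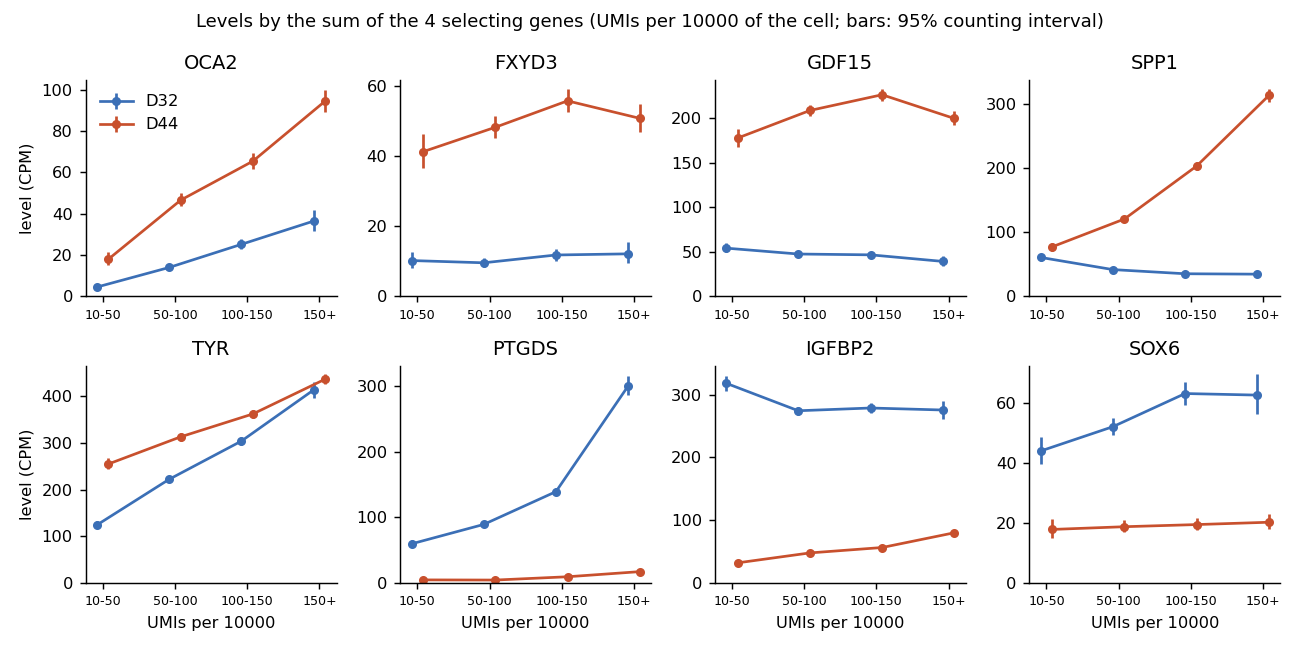
Levels in CPM (vertical axes) of 8 genes in melanocyte-like cells of D32 and D44 (lines), split by the summed level of the 4 selecting genes (horizontal axes, UMIs per 10000), with exact 95% Poisson intervals as bars. The curves of OCA2, FXYD3 and GDF15 at D44 lie above those of D32 in all 4 ranges, and those of PTGDS, IGFBP2 and SOX6 lie below.

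Cells of D44 held more of the 4 selecting genes, so the levels were also read within 4 ranges of that sum, 10 to 50, 50 to 100, 100 to 150 and from 150 UMIs per 10000. OCA2 was higher at D44 in all 4, with log2 differences from 1.37 to 2.00, and so were FXYD3 (2.01 to 2.33), GDF15 (1.71 to 2.35), SLC16A6 (1.40 to 1.78) and SPP1 (0.35 to 3.18). SPP1 differed least in the lowest range, at 60.6 and 77.2 CPM, and most in the highest, at 34.6 and 313 CPM. TYR was higher in all 4 as well, at 124 and 255 CPM in the lowest range and 414 and 437 CPM in the highest. In the highest range its intervals overlapped (397 to 431 in D32 and 426 to 449 in D44). MITF was lower at D44 in all 4 (-0.26 to -0.04), with overlapping intervals from 100 UMIs per 10000 upwards. The other large rises were less even. VEPH1 and EFHD1 differed by 0.07 and 0.09 in the lowest range, CCDC171 was lower there, at 9.75 and 6.60 CPM, and TAC1 was at 23.8 and 204 CPM in the lowest range and at 4.17 and 3.53 CPM in the highest. PTGDS, IGFBP2, SOX6, STMN2 and BASP1 were lower in all 4. PMEL was lower at D44 in all 4 ranges (-0.63 to -0.11) and TYRP1 higher (0.35 to 0.53). Both genes are part of the sum, so nothing is read from these differences. The ranges are broad, and the sum was not equal between the libraries within a range.

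The 4 linker histone genes HIST1H1B, HIST1H1C, HIST1H1D and HIST1H1E were called higher. HIST1H1B was at 33.6 CPM in D32 (32.1 to 35.2) and 73.8 CPM in D44 (71.6 to 76.1), HIST1H1D at 43.8 and 90.8 CPM, HIST1H1E at 24.7 and 54.2 CPM and HIST1H1C at 52.6 and 87.1 CPM. With HIST2H2AC and H1F0, 6 of 13 tested histone genes were called higher and none lower, with a median log2 difference of 0.56 beside -0.03 over all genes. The summed level of the list went the other way, 5580 CPM in D32 and 4923 CPM in D44, of which H2AFZ, a variant histone gene, made up 4034 and 3172 CPM. The call of H1F0 was lost under 3 alternatives, not counting the changed level filters and fold limit. The histone gene HIST1H4C was at 258 and 382 CPM, not called, and in 53.2% and 67.5% of cells. Replication-dependent histone transcripts mostly lack a poly(A) tail, and the libraries were made from polyadenylated RNA, so these levels cover only the part that was captured.

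The promoters of the 4 called H1 genes of chromosome 6 are shown because these genes were all called higher. AAACACA, known as the H1 box, and CCAAT were searched on both strands and are in capitals (TGTGTTT and ATTGG on the other strand), and no match of one overlaps the other. The windows are chr6:27867539-27867838 for HIST1H1B, chr6:26056421-26056720 for HIST1H1C and chr6:26234938-26235237 for HIST1H1D, all minus strand, and chr6:26156079-26156378 for HIST1H1E, plus strand.
HIST1H1B: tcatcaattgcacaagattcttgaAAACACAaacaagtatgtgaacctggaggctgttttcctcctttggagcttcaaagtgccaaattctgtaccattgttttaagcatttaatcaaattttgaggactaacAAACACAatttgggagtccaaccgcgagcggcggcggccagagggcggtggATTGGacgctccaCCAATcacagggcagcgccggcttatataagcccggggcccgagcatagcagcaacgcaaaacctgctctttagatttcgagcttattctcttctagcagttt
HIST1H1C: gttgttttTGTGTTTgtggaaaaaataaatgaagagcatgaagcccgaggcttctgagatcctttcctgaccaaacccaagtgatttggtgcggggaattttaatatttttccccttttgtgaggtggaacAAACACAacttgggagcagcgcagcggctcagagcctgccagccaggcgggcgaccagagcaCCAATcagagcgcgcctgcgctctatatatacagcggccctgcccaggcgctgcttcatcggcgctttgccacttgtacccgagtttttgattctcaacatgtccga
HIST1H1D: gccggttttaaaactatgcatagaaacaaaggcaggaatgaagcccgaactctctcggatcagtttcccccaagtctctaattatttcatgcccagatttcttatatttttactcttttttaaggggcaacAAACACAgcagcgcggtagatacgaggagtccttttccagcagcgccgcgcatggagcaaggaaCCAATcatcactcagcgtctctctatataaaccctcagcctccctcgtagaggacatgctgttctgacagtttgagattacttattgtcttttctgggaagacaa
HIST1H1E: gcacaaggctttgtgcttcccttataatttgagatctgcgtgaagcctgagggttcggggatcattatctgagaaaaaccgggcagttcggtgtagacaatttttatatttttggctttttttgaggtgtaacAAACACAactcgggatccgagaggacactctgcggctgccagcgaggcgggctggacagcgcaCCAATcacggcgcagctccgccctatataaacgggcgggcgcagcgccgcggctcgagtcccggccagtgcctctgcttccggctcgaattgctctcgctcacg
An AAACACA begins 117 to 119 bases before the start in all 4, and a CCAAT 53 to 57 bases before it. AAACACA was present in 5.66% of all 34943 windows and CCAAT in 34.6%, and among 14 histone genes with a window 6 held the first and 13 the second.

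MKI67, a proliferation marker, was at 79.1 and 116 CPM and TOP2A, a mitotic topoisomerase, at 78.8 and 106 CPM, neither called. Cells with any UMI of MKI67, TOP2A, CDK1 and RRM2 were 60.4% of D32 and 62.8% of D44. Those with 3 or more were 32.2% and 36.2%. Cells with 10 or more UMIs of these genes were 11.6% of D32 (10.8 to 12.5%) and 15.5% of D44 (14.6 to 16.5%). Of 53 tested G2 and M phase genes, HJURP was called higher, 44 lay above 0 and the median was 0.19. Of 38 S phase genes none was called, beside 4.01% over all genes, and their median was 0.02. The G2 and M phase median was 0.05 with a mitochondrial limit of 5%, where that of S phase was -0.11 and HJURP was not called, and 0.35 with D32 weighted to the D44 levels of the selecting genes. It was 0.02 in cells without MKI67, TOP2A, CDK1 and RRM2. In the same cells the median of the histones was 0.69. HIST1H1B (0.98) and HIST2H2AC (0.93) were no longer called there, although both differences stayed past the 1.5-fold limit. Among CDK inhibitor genes CDKN1B (20.3 and 36.1 CPM) and CDKN2D (19.02 and 32.2 CPM) were higher and the imprinted CDKN1C lower, from 131 to 62.8 CPM.

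Of 59 ribosomal protein genes, 56 lay above 0, with a median of 0.23, and RPL31, RPS20, RPS2 and RPL23 were called higher. Their summed level was 144901 CPM in D32 and 166460 CPM in D44. GDF15 and PPP1R15A, a phosphatase subunit of the integrated stress response (35.1 and 56.0 CPM), were called higher among 19 genes of that response, 14 of which lay above 0 with a median of 0.25. Its factor genes ATF4 and DDIT3 were not called, at 56.9 and 67.4 CPM and at 34.1 and 23.6 CPM. Antioxidant genes lay mostly lower: 20 of 25 were below 0, with a median of -0.15. HMOX1, the haem oxygenase gene, fell from 39.3 to 15.9 CPM, GCLM, a subunit of glutathione synthesis, from 36.8 to 18.7 CPM, the peroxiredoxin gene PRDX1 from 1689 to 1013 CPM and ME1 from 36.0 to 23.2 CPM. The metallothionein gene MT2A rose from 10.8 to 25.4 CPM.

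Of 27 lysosomal genes, CTSB (387 and 618 CPM), CTSA (115 and 176 CPM), CD68 (15.2 and 27.1 CPM) and FUCA1 (9.39 and 23.6 CPM) were called higher and GLA (171 and 110.5 CPM) lower, and the median was -0.0029. None of 15 proton pump genes, 54 nuclear oxidative phosphorylation genes or 31 cholesterol and fatty acid synthesis genes was called. Over all genes 4.01% were called, so nothing is read from these counts. The last of these lay below 0 for 25 of 31, with a median of -0.24, for example HMGCS1 at 137 and 92.7 CPM. Among 10 tested genes of the BCL2 family, BCL2A1, a survival gene downstream of MITF, was higher (5.01 and 16.1 CPM) and BIK lower.

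Among 34 secreted and maturation genes of melanocytes, 6 were called higher and 8 lower, beside 1.89% and 2.13% of all genes tested. The list was chosen with earlier results of these data known, so nothing is read from these counts. S100A4, a calcium-binding protein gene, fell from 1906 CPM (1895 to 1918) to 883 CPM (875 to 890.5), and S100A1 from 102 to 51.1 CPM. APOE, a carrier of lipids, fell from 1752 to 948 CPM, SERPINF1, which encodes PEDF, from 261 to 128 CPM, IGFBP7 from 304 to 161 CPM and IGFBP5 from 105 to 64.3 CPM. TIMP3, an inhibitor of matrix proteases, rose from 117 to 230 CPM. VGF and DAAM2 were also higher. Of 21 neural crest and immature melanoblast genes, ID4, FABP7 and S100B were higher and HMGA2 (46.9 and 24.9 CPM) and CRABP1 lower, with a median of -0.10.

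In the remaining lists the counts stand beside 4.01% called over all genes. Integrin genes ITGA4, ITGA1 and ITGB8 were higher and TUBB2B and L1CAM lower among 33 cytoskeleton and adhesion genes. The call of ITGB8 was lost under 4 alternatives, not counting the changed level filters and fold limit. TGFBI, SFRP1 and DKK3 were higher and APCDD1, a WNT inhibitor, lower among 11 TGF-beta, BMP and WNT genes. Of 24 heat shock and immediate early genes, IER3, FOSB and SPRY2 were higher and HSPB1 lower. BNIP3L was lower among 24 glycolysis and hypoxia genes, PSMB8 higher among 12 antigen presentation genes and MT-ND4L lower among 12 mitochondrial genes. Among 7 imprinted genes PHLDA2 was higher and CDKN1C and NNAT lower, and among 16 nuclear RNAs SNHG5 and SNHG6 were higher and SNHG7 lower. Of 139 tested genes from a published pigmentation screen, OCA2 and SLC24A4 were higher and SHISA4 lower.

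**Figure D5:**
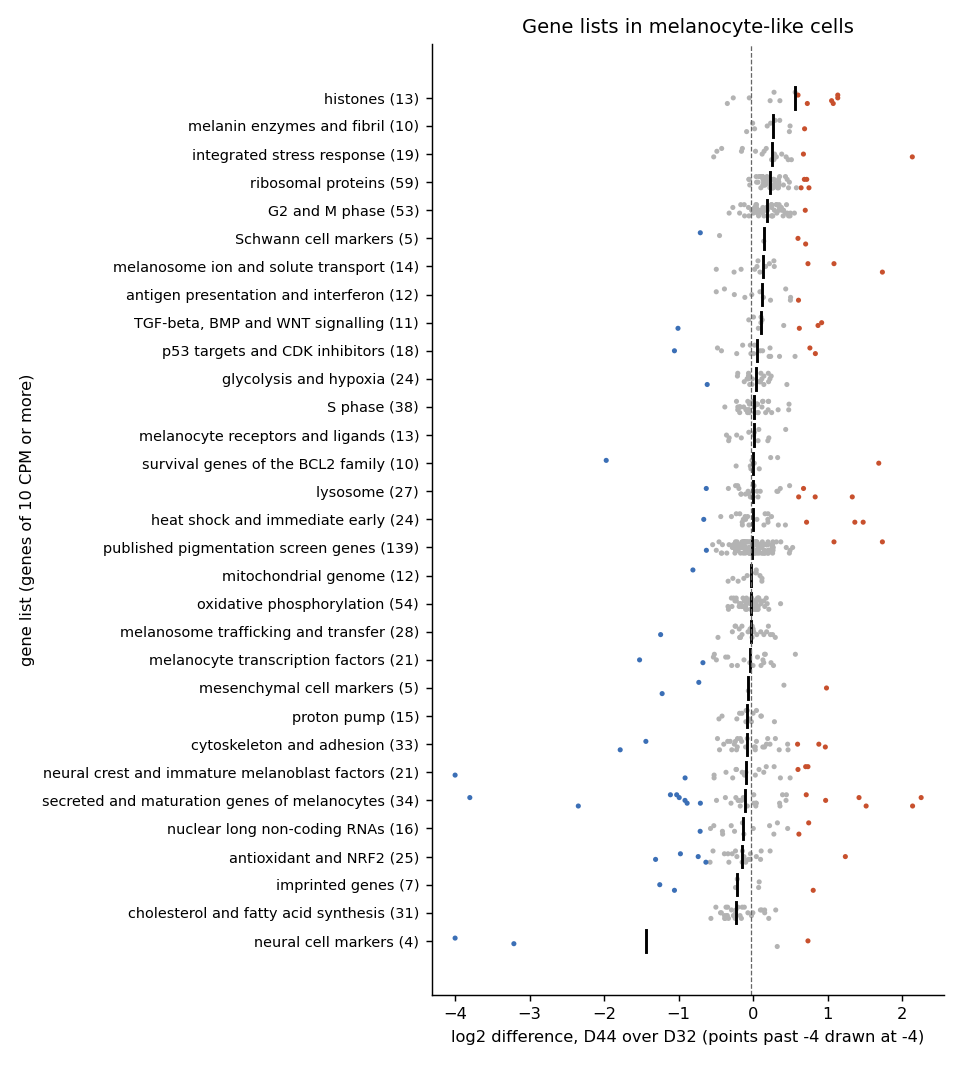
Log2 difference of each tested gene, D44 over D32 (horizontal axis, points at or past -4 drawn at -4), for the gene lists with at least 3 tested genes (vertical axis, number of tested genes in brackets), with the median of each list as a black bar and that of all genes as a dashed line. Red and blue points differ 1.5-fold or more. Histones have the highest median, 0.56.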

How the data were processed

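Droplet RNA libraries of D32 and D44, 1 per day, were used, and D23 was only counted. The authors deposited raw, unnormalized UMI counts of each gene in each barcode. The submitters' processing notes name Cell Ranger 6.1.2 and GRCh38. The annotation release is not given in the sources used here. The study's cell filter was applied: mitochondrial UMIs under 10%, over 3000 and under 9000 genes, and under 100000 UMIs. Doublets were scored with Scrublet in Scanpy 1.11.5 (30 principal components). The barcodes with the highest scores, up to a preset share of 0.8% per 1000 barcodes, were called and kept. Cells were thinned to 10000 UMIs without replacement (seed 1) and summed per library, in Python 3.11.15 with numpy 2.4.6, scipy 1.17.1 and pandas 2.3.3. The procedure was tested on simulated data. Scaling factors of edgeR 4.0.16 and DESeq2 1.42.0 (R 4.3.3) served as alternatives only.

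The members and the 33 gene lists were chosen with earlier results of these data known. Genes were named when they were called members of a list or had a defining role in it, when they were among the 15 largest rises or falls with at least 20 CPM in the higher library and an approved symbol, leaving out sex-linked genes, or when their call turned under an alternative. Gene positions were looked up by identifier in GENCODE (GRCh38), where 967 of 969 genes were found. Promoters are the first RefSeq window of each gene.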

Additional observations from a re-analysis of the deposited data

How the results depend on the processing

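With 1 library per day, the intervals cover counting error and not the spread between cultures. No paired analysis was possible because each day had a single library. No called gene changed sign under any of the 15 alternatives. For some of them this was fixed in advance. The changed level filters and fold limit leave every ratio as it was. TMM and DESeq2 factors shift all log2 differences alike, by 0.05 and 0.03, which is too little to turn a called gene. Against 152 genes higher and 171 lower, a filter at 50 CPM gave 48 and 59, one at 1 CPM 432 and 629, and a fold limit of 2 gave 42 and 55. Leaving out cells whose barcode occurs in both libraries, an alternative chosen after seeing the data, gave 153 and 173, with 322 of the 323 calls shared. Cells without MKI67, TOP2A, CDK1 and RRM2 gave 176 and 235, with 288 shared, and TMM 197 and 141.

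The share of melanocyte-like cells in D32 was 92.5% with a limit of 20 UMIs per 10000, 92.5% without called doublets and 89.4% with a mitochondrial limit of 5%. In D44 it was 96.7% with a limit of 20, 99.3% with a limit of 5 and 98.3% with the mitochondrial limit of 5%.

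The median of all 10 melanin and fibril genes, which include the 4 selecting genes, was 0.26. It was 0.29 thinned to 20000 UMIs, 0.30 with all UMIs, 0.36 in cells without the 4 cycling genes, 0.13 with D32 weighted to the D44 levels of the 4 selecting genes, 0.32 with TMM, 0.29 with DESeq2 size factors and 0.29 with the mitochondrial limit of 5%. The weighting matches the libraries on genes of this very list, and the list holds the selecting genes, so nothing is read from these values. The median of the 6 other genes, 0.21, was not recomputed under these settings. That of the histones, 0.56, was 0.45 with all UMIs, 0.69 in cells without the cycling genes and 0.32 with the mitochondrial limit. That of the ribosomal proteins, 0.23, was 0.20 with all UMIs, 0.24 without cycling cells, 0.21 weighted, 0.28 with TMM and 0.26 with DESeq2 size factors. The cause of these moves was not tested. Weighted in this way, TYRP1 (0.39) and SLC7A5 (0.55) were no longer called. In cells without the cycling genes, the calls of HJURP (0.11), CDKN2D (0.16), ITGB8 (0.45), SPRY2 (0.46), S100B (0.52), PPP1R15A (0.54), HIST1H1B (0.98), HIST2H2AC (0.93), SHISA4 (-0.49), KRT18 (-0.54) and ME1 (-0.57) were lost. Of these, HIST1H1B and HIST2H2AC still differed by more than 1.5-fold. Leaving aside the changed level filters and fold limit, 24 of 100 named calls were lost at least once over the alternatives. Among these, KRT18 was lost under 5, ITGB8 and ME1 under 4, and H1F0, DKK3 and SHISA4 under 3. BNIP3L, PSMB8, HJURP and S100B were lost under 2, and ID4, CTSA, GLA, NNAT and VGF under 1. Of the 323 calls over all genes, the filter at 50 CPM kept 107 and the fold limit of 2 kept 97.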
